A study of Homo sapiens with 3 samples.

Results

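The BPP-only intergenic H3K27ac peaks are 2114 of the 17841 peaks that the authors called in A2780 cells given the BPP peptide. A peak was a member if it lay on chromosomes 1 to 22 or X and no peak of the control list came within 1 kb of it. It also had to lie outside every protein-coding gene and outside the windows of 1 kb on either side of each gene start and end, by the GRCh38 RefSeq table. A2780 is a human ovarian carcinoma line, and the series design describes BPP as a peptide that competes for the phosphorylation site of the protein BIN2. The series held 3 CUT&Tag libraries, with 1 library per group. They were H3K27ac in cells given BPP (BPP), H3K27ac in control cells (CTR, 14836 peaks) and an IgG background library (IgG, 7701 peaks). The design names a TAT peptide as comparator of an RNA-seq experiment, but what the CTR cells received is not given in the sources used here. With 1 library per group nothing was replicated and no test between BPP and CTR was possible. Every difference below is a difference between 2 peak lists, and its interval covers counting error only. Read depth is unknown.

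H3K27ac is acetylation of lysine 27 of histone H3, which acetyltransferases such as p300 and CBP place and histone deacetylases remove. It marks active promoters and active enhancers, and an enhancer can lie far from the gene that it controls. Away from protein-coding genes, peaks of the mark are usually read as candidate enhancers or as starts of non-coding transcripts. Long non-coding RNAs (lncRNAs) and host transcripts of microRNAs (miRNAs) start at such places. In CUT&Tag an antibody against the mark brings a transposase to the chromatin, which tags the DNA nearby for sequencing. As a check of the label, KRT8, KRT18 and MSLN were the 3 of 15 ovarian or epithelial marker genes with a BPP peak at a gene end, against KRT8 and KRT18 in CTR. Of 5 leukocyte markers CD68 had one in both lists, and none of the 3 endothelial or 3 fibroblast markers had one in either. The other 12 ovarian or epithelial markers, PAX8 and EPCAM among them, had no BPP peak there. Across the 19974 protein-coding genes, the share marked this way was 23.6% for both H3K27ac lists and 7.03% for BPP alone. The 3 of 15 markers did not exceed that background, so these counts do not decide whether the label is right.

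3 members named for their strength covered the first base of a lncRNA gene, and the promoter windows of these lncRNAs are printed here. Each window below runs from 250 bases before the start to 50 bases after it, 5′ to 3′ on the strand of the gene, and comes from RefSeq on GRCh38.p14. Capitals mark matches to the motifs searched on both strands: TGANTCA for AP-1, CCGGAAG for ETS factors, GGGCGG for the GC box, CCAAT for NF-Y, CACGTG for the E-box and GGAATG for TEAD factors. The motif of GATA factors was searched as AGATAA, and that of the box bound by TBP as TATAAA. A match on the other strand appears as its reverse complement, so an NF-Y match can also read ATTGG. MIR497HG is the host transcript of miR-497 and miR-195, and LOC124904989 and LOC124904625 are lncRNAs without a gene name. The summit of the MIR497HG member lay 196 bp upstream of the start, inside the window. The summits of the other members lay outside their windows, 124 bp downstream of the start of LOC124904989 and 237 bp downstream of that of LOC124904625.
MIR497HG, chr17:7019605-7019904, minus strand: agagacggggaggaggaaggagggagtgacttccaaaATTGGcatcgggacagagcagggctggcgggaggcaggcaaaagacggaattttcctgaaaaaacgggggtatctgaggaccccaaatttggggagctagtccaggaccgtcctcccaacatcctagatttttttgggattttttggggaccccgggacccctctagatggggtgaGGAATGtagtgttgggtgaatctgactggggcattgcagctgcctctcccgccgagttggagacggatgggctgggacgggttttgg
LOC124904989, chr21:7142275-7142574, minus strand: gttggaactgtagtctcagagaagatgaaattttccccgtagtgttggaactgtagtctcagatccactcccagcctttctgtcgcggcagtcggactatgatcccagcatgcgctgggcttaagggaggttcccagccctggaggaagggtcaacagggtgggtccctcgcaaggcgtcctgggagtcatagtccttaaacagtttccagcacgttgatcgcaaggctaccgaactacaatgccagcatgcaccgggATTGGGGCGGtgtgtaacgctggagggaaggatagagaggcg
LOC124904625, chr19:7099513-7099812, minus strand: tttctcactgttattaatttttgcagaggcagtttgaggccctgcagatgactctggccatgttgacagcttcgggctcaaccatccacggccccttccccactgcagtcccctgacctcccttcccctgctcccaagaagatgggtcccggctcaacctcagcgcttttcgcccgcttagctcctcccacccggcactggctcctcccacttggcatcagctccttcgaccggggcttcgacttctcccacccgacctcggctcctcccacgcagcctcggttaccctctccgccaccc
The MIR497HG window held 1 NF-Y and 1 TEAD match. The LOC124904989 window held 1 NF-Y and 1 GC box match, which overlap by 1 base, and the LOC124904625 window held none. A match is a string of letters, not an occupied site. Of 12829 lncRNA windows 34.4% held an NF-Y match, 17.1% a TEAD match and 25.6% a GC box.

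Members overlapped 3 miRNA genes. Such an overlap held for 0.142% of members, against 0.121% of intergenic CTR peaks without a BPP peak within 1 kb. Of intergenic BPP peaks with a CTR peak within 1 kb it held for 0.304%, so it is not particular to members. The mature miRNAs of MIR183 and MIR4313, and those made from MIR497HG, are printed with the seed (bases 2 to 8) in capitals. The miRNAs hosted by MIR497HG were added after the values of the peak were seen. miR-497-5p and miR-195-5p share the seed AGCAGCA, that of the miR-15 and miR-16 family, which targets cell-cycle genes.
hsa-miR-497-5p: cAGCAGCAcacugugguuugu
hsa-miR-195-5p: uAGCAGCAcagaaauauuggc
hsa-miR-183-5p: uAUGGCACugguagaauucacu
hsa-miR-183-3p: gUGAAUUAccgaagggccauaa
hsa-miR-4313: aGCCCCCUggccccaaaccc
The MIR497HG member lay 1.62 kb from the bases of miR-497-5p and 1.93 kb from those of miR-195-5p. MIR183, a gene of the miR-183 cluster known from sensory organs, was touched at its hairpin by the peak at chr7:129775007-129775344. That peak had a fold of 2.61 and ended 0.0190 kb from the bases of miR-183-5p, without covering them. MIR4313 was covered by the peak at chr15:75762051-75762369, which had a fold of 3.33 and lay over the mature bases. The third miRNA gene was MIR612, inside the lncRNA NEAT1, under the peak at chr11:65444299-65444686 with a fold of 2.76. An IgG peak lay 0.463 kb from that peak.

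Members were narrow peaks of moderate strength. The authors' fold per peak, a ratio over a background that they do not describe, ranged from 1.93 to 15.4 with a median of 4.39. Their −log10 q, the significance that their peak caller gave each peak, ranged from 2.60 to 39.5 with a median of 5.61. Width ranged from 287 to 1513 bp with a median of 393 bp, and together the members covered 0.940 Mb of the 10.4 Mb under all BPP peaks. In the same list the 2300 intergenic BPP peaks that had a CTR peak within 1 kb (shared intergenic peaks) had a median fold of 4.82, a median −log10 q of 10.0 and a median width of 570 bp. The 4741 peaks without a CTR peak within 1 kb inside genes had a median fold of 3.89 and a median width of 402 bp. Ranked by −log10 p and cut into 10 equal parts, the BPP list held 10 members among the 1784 peaks of its strongest part, or 0.561%. The fifth part held 209 and the last part 366 of 1785, or 20.5%. The share rose at every step down the list. The rule chose peaks for lacking a CTR counterpart, so these values describe the members and nothing is read from them about BPP.

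**Figure D1:**
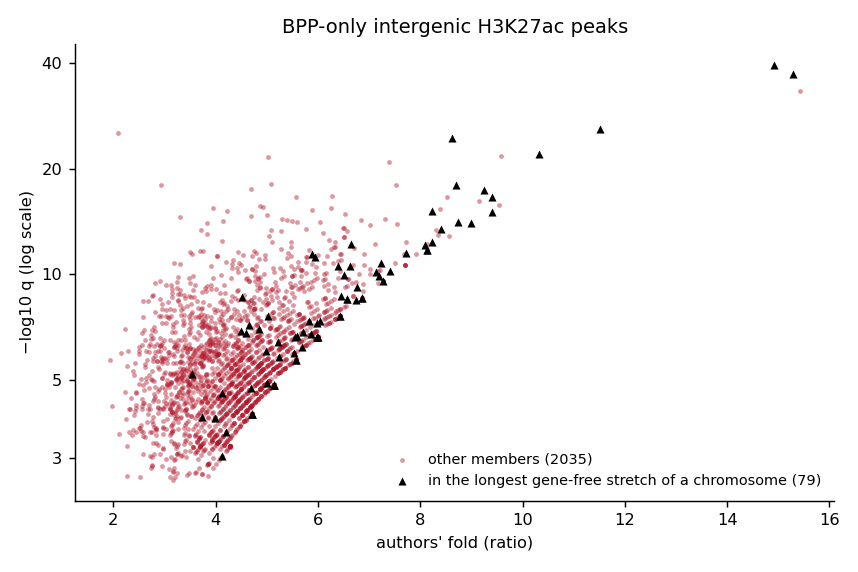
Each point is 1 of the 2114 BPP-only intergenic peaks, with the authors' fold (a ratio) on the x axis and −log10 q on a log y axis; black triangles are the 79 peaks in the longest gene-free stretch of a chromosome. Most points lie under a fold of 8, and the triangles reach further to the right than most other points.

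Lacking a CTR peak was not particular to intergenic places. Of all BPP peaks 46.2% had no CTR peak within 1 kb, and of the 4414 intergenic BPP peaks 47.9%, which are the members. In the CTR list the shares without a BPP peak within 1 kb were 36.2% of all and 42.2% of intergenic peaks. That left 1656 CTR-only intergenic peaks, chosen by the same rule with the lists exchanged, and these serve as the comparison below. The nearest CTR peak lay at a median of 25.04 kb from a member, and 1560 members (73.8%) had none within 10 kb. The bound of 1 kb cut through a run of similar peaks. The 5 members just outside it lay 1.01 to 1.03 kb from a CTR peak and had folds of 3.03 to 6.64, and the 5 intergenic BPP peaks just inside it lay 0.970 to 0.982 kb away and had folds of 3.12 to 4.61. Among the members just outside it was the peak at chr6:26028853-26029172, 1.57 kb from the histone gene H4C2, with a fold of 3.22.

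Few members lay beside background signal. An IgG peak came within 1 kb of 21 of 2114 members (0.993%, 95% Wilson interval 0.651 to 1.51) and of 44 of 1656 CTR-only intergenic peaks (2.66%, 1.99 to 3.55). The difference was −1.66 percentage points (95% Newcombe interval −2.62 to −0.814), and among all BPP peaks the share was 2.58%. Among BPP peaks inside genes without a CTR peak within 1 kb it was 1.39%. By distance to a gene the difference was −0.865 points at 1 to 10 kb, −1.22 at 10 to 50 kb and 1.10 at 50 to 100 kb. These 3 intervals include 0. It was −4.16 points (−7.17 to −1.93) at 100 to 500 kb and −3.22 (−5.54 to −0.563) over 500 kb. Shared intergenic peaks had an IgG peak within 1 kb in 8.04%. The median distance to an IgG peak was 103 kb for members. The member beside an IgG peak with the highest −log10 q was the one at the start of LOC124904625, chr19:7098966-7099618, with a fold of 8.39 and the IgG peak 0.812 kb away.

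The strongest members included peaks in long stretches without genes and peaks over annotated non-coding genes. Of the 12 members with the highest −log10 q and no IgG peak within 1 kb, 6 lay more than 500 kb from any protein-coding gene and 5 of those lay in the longest gene-free stretch of their chromosome. The top member, chr19:25916230-25916550, had the highest −log10 q, 39.5, and a fold of 14.9, and lay 1786 kb from ZNF254, a zinc finger gene. The next, chr1:124084370-124084661, had a fold of 15.3 and lay 2621 kb from the gene that the table names LINC02798. On chromosome 5 the peak at chr5:49547142-49547480 had a fold of 8.62 and lay 849 kb from EMB, which encodes the adhesion protein embigin. None of these peaks was wider than 339 bp, and the highest rank of the 12 in the whole BPP list was 404.

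Of the same 12 members, 4 overlapped a lncRNA and 1 a pseudogene. The highest fold of all members, 15.4, was at chr4:9368437-9368979 over USP17L6P, a transcribed pseudogene of the USP17 family of deubiquitinases, with the nearest CTR peak 215 kb away. USP17 genes are near-identical copies, so the copy that the reads came from is uncertain. On the X chromosome the peak at chrX:115864346-115865417 was 1072 bp wide. Its −log10 q was 25.2 and its fold 2.10. It lay over DANT1 and DANT2, non-coding transcripts of the DXZ4 macrosatellite, and a CTR peak lay 1.57 kb from it. The start of LOC124904989 was covered by the peak at chr21:7141624-7142425, where −log10 q was 21.7 and the fold 9.58, with the nearest CTR peak 43.3 kb away. The start of MIR497HG was covered by the peak at chr17:7019614-7020096, where −log10 q was 21.6 and the fold 5.02. Its summit lay 196 bp upstream of the start, the nearest CTR peak was 6.23 kb away and the nearest protein-coding gene, BACC1, 2.09 kb. At chr21:29002655-29003064 a peak with a fold of 7.52 lay 1.32 kb from RWDD2B, a gene with a gene-end peak in BPP but not in CTR.

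Members lay nearer to protein-coding genes than the peaks found in CTR alone. Their median distance to the nearest gene was 25.4 kb, against 54.3 kb for CTR-only and 42.2 kb for shared intergenic peaks. A gene lay 1 to 10 kb away for 626 members (29.6%), against 304 CTR-only peaks (18.4%). The difference was 11.3 percentage points (95% Newcombe interval 8.54 to 13.9). At the far end 165 members (7.81%) were over 500 kb from any gene, against 373 CTR-only peaks (22.5%), a difference of −14.7 points (−17.1 to −12.4). Of shared intergenic peaks 19.9% were that far from a gene. These distances were not examined at equal list lengths.

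**Figure D2:**
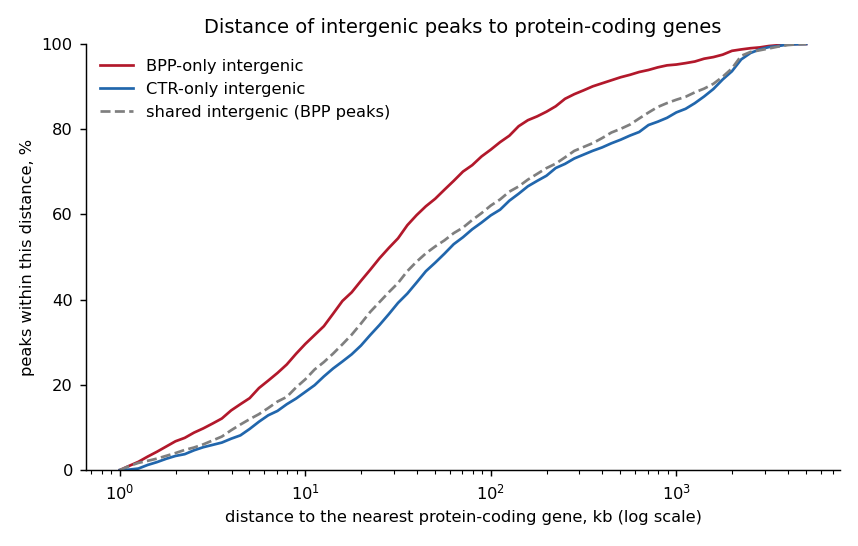
The lines give the share of peaks, in %, that lie within a given distance of a protein-coding gene (kb, log scale), for the BPP-only, CTR-only and shared intergenic peaks. The BPP-only line runs above the other two, with medians of 25.4 kb for BPP-only, 54.3 kb for CTR-only and 42.2 kb for shared peaks.

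Much of the far end came from the longest gene-free stretch of each chromosome, which on most chromosomes holds or borders the centromere and its repeated sequence. These stretches held 79 members (3.74%), 261 CTR-only peaks (15.8%) and 332 shared intergenic peaks (14.4%). Members minus CTR-only came to −12.02 points (95% Newcombe interval −14.0 to −10.1), and members minus shared to −10.7 points (−12.4 to −9.05). Of 4095 intergenic IgG peaks 2.20% lay there. How reads in repeated sequence were placed is not given in the sources used here, and its part in the result was not tested. The stretch of chromosome 10 held 18 members and 59 CTR-only peaks, that of chromosome 1 held 17 and 34, that of chromosome 5 held 11 and 42, and that of chromosome 19 held 10 and 52. Members inside the stretches had a median fold of 5.98, against 4.34 for the 2035 outside them. With the stretches left out, the median distance to a gene was 23.6 kb for members, 36.7 kb for CTR-only and 29.9 kb for shared intergenic peaks. Members thus remained the class nearest to genes.

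Members were spread over every chromosome analysed. Chromosome 1 held most, 232, and chromosome 18 fewest, 14. Counting both kinds of unshared intergenic peak together, members made up 56.1% of 3770 (95% Wilson interval 54.5 to 57.7). The share was highest on chromosome 17, with 130 members against 63 CTR-only peaks (67.4%, 60.5 to 73.6), and on chromosome 22, with 92 against 49 (65.2%, 57.1 to 72.6). Chromosome 10 held 113 members and 126 CTR-only peaks (47.3%) and chromosome 19 held 85 and 94 (47.5%). Outside the gene-free stretches those shares were 58.6% and 64.1%, beside 59.3% over all chromosomes. CTR-only peaks also outnumbered members on chromosomes 4 (83 members against 88), 7 (107 against 110), 13 (32 against 37), 18 (14 against 20) and 21 (53 against 55). Outside the stretches the share was 49.4% on chromosome 4 and 49.1% on chromosome 21.

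**Figure D3:**
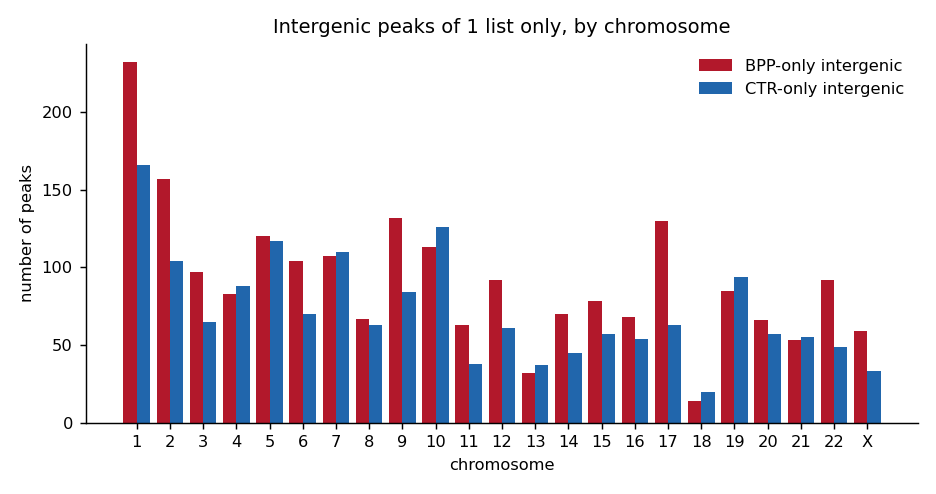
Bars give the number of BPP-only (left bar) and CTR-only (right bar) intergenic peaks on each chromosome. BPP-only peaks outnumber CTR-only peaks on chromosome 17 by 130 to 63 and on chromosome 22 by 92 to 49, while CTR-only peaks are more numerous on chromosomes 4, 7, 10, 13, 18, 19 and 21.

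Some regions of 5 Mb held many members and few CTR-only peaks. On chromosome 9 the region from 125 to 130 Mb held 22 members, against 6 CTR-only and 14 shared peaks. The nearest genes there included LOC124900275 with 8 members, IER5L, an immediate early response family gene, with 4, and NAIF1 with 3. On chromosome 1 the region from 5 to 10 Mb held 18 members, against 2 CTR-only and 5 shared peaks. ERRFI1, which encodes an inhibitor of the EGF receptor, was the nearest gene of 6 of these, with folds of 3.15 to 3.86. On chromosome 11 the region from 65 to 70 Mb held 18 members, against 4 CTR-only and 19 shared peaks. It contains NEAT1. The region of chromosome 10 from 40 to 45 Mb was unlike these, with 22 members, 55 CTR-only and 95 shared peaks. So was that of chromosome 1 from 120 to 125 Mb, with 18 members, 32 CTR-only and 50 shared peaks. These regions were taken for their number of members, so their counts are a description.

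Many members lay in a lncRNA gene. The overlap held for 567 members (26.8%, 95% Wilson interval 24.98 to 28.8), 341 CTR-only peaks (20.6%, 18.7 to 22.6) and 591 shared intergenic peaks (25.7%). Members exceeded CTR-only peaks by 6.23 points (95% Newcombe interval 3.50 to 8.92), and differed from shared peaks by 1.13 points (−1.47 to 3.73), an interval that includes 0. The size of the excess over CTR-only peaks differed between distances to genes, without a steady rise, and the difference between distances was not tested. It was 1.83 points (−3.89 to 7.14) where a gene lay 1 to 10 kb away and 0.927 points (−4.16 to 5.90) at 10 to 50 kb. Further out it was 6.84 points (−2.04 to 15.4) at 50 to 100 kb, 10.4 points (3.22 to 17.4) at 100 to 500 kb and 6.49 points (1.48 to 12.7) over 500 kb. With peaks over 500 kb from a gene left out, a choice made after seeing the data, it was 3.12 points (0.000574 to 6.19). Among peaks with a fold of 5 or more it was 3.75 points (−0.250 to 7.77), which includes 0. In all, 480 of 18177 lncRNA genes (2.64%) were overlapped by a member and 313 (1.72%) by a CTR-only peak.

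**Figure D4:**
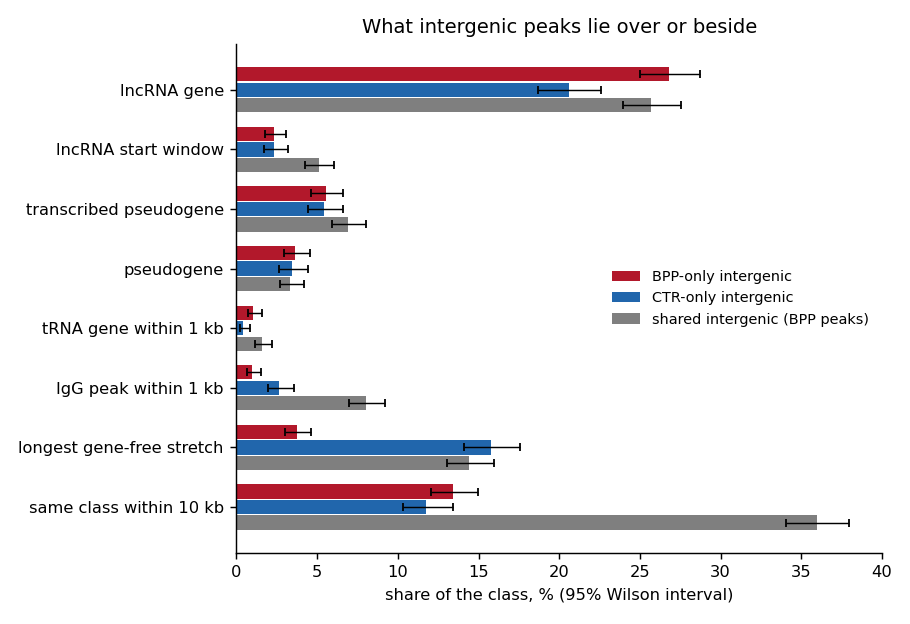
Bars give the share, in %, of BPP-only, CTR-only and shared intergenic peaks that lie over or beside each feature named on the y axis, and whiskers give 95% Wilson intervals. BPP-only peaks lie over a lncRNA gene in 26.8% and in a gene-free stretch in 3.74%, against 20.6% and 15.8% of CTR-only peaks.

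The lncRNA with most members was SLC38A4-AS1 on chromosome 12, with 13 members and 2 CTR-only peaks over its 269 kb. PVT1, the lncRNA beside MYC, had 9 members and 3 CTR-only peaks over 307 kb, LOC124901056 had 8 and 3, LINC01091 had 6 of each and LOC105375716 had 5 of each. DANT2, LINC-PINT, MIR99AHG and MSRB3-AS1 had 5 members each and 1 or 2 CTR-only peaks. Long genes offer more room for peaks, and these were chosen for their counts. Of a list of 78 well-known lncRNAs and other non-coding RNAs, 75 matched the table, 10 of them had a member and 10 a CTR-only peak. Any BPP peak was found over 31 of them and any CTR peak over 28. Over all lncRNA genes 2.64% were overlapped by a member and 1.72% by a CTR-only peak. Gene length was not taken into account. LINC-PINT, a transcript induced by p53, had members with folds of 2.51 to 4.10. LUCAT1, a stress-responsive lncRNA, had members with folds of 3.13 and 4.30 and no CTR-only peak, the nearest CTR peaks being 30.7 and 32.5 kb away. CYTOR, a lncRNA tied to the cytoskeleton, had 3 members with folds of 3.25 to 4.53 and 1 CTR-only peak. NEAT1, which builds paraspeckles, had members with folds of 2.95 and 2.76 and 1 CTR-only peak. MALAT1, NORAD, GAS5 and ZFAS1 had no member, and each had a peak in both H3K27ac lists.

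Members lay over starts of lncRNAs about as often as CTR-only peaks, and less often than shared intergenic peaks. A member overlapped a promoter window of a lncRNA in 49 cases (2.32%), against 39 CTR-only peaks (2.36%) and 117 shared intergenic peaks (5.09%). Members differed from CTR-only peaks by −0.0372 points (95% Newcombe interval −1.05 to 0.928) and from shared peaks by −2.77 points (−3.89 to −1.67). They overlapped 51 of 12829 such windows (0.398%), against 44 (0.343%) for CTR-only peaks, and in 31 of the 51 the peak covered the first base. The 12829 were not limited to windows that a member can reach, since windows in or at protein-coding genes were kept. Behind the promoters printed above came LINC01806, with a fold of 6.48 at chr2:161244574-161244959, 8.34 kb from TANK, a regulator of TRAF signalling. LINC01186 on the X chromosome followed with a fold of 5.76 at chrX:46327386-46327835, 218 kb from a CTR peak. Median GC content was 57.3% over these 51 windows and 50% over all lncRNA windows. An AP-1 match stood in 9 of the 51 (17.6%, 95% Wilson interval 9.57 to 30.3), against 10.3% of all lncRNA windows. An ETS match stood in 8 (15.7%, 8.17 to 28.0), against 5.85%. GC boxes stood in 17 (33.3%, 21.97 to 47.0), against 25.6%, and TEAD matches in 12 (23.5%, 14.005 to 36.8), against 17.1%. E-boxes stood in 3 (5.88%, 2.02 to 15.9), against 5.41%. Other motifs stood in fewer of the 51 windows than of all lncRNA windows. A TATA box stood in 2 (3.92%, 1.08 to 13.2), against 15.1%, an NF-Y match in 13 (25.5%, 15.5 to 38.9), against 34.4%, and a GATA match in 5 (9.80%, 4.26 to 21.0), against 14.5%. These shares are not matched for GC content or for place relative to protein-coding genes.

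Genes of transfer RNAs (tRNAs), which RNA polymerase III transcribes, had members beside them in 3 main groups. Of all members 22 (1.04%) lay within 1 kb of a tRNA gene, against 7 CTR-only peaks (0.423%) and 37 shared intergenic peaks (1.61%). Members minus CTR-only came to 0.618 points (95% Newcombe interval 0.0485 to 1.19), and members minus shared to −0.568 points (−1.26 to 0.120). On chromosome 6, in the region of the histone genes, 10 members lay beside tRNA genes, against 2 CTR-only and 10 shared peaks. The strongest by −log10 q that overlapped a tRNA gene was chr6:27605739-27606352 over TRL-CAA2-1, with a fold of 5.61 and the nearest CTR peak 52.4 kb away. On chromosome 1 there were 6, against 2 CTR-only and 16 shared peaks. On chromosome 5 there were 5, between TRIM41 and OR2V2, with folds of 2.63 to 4.24 and no CTR-only or shared intergenic peak beside a tRNA gene. In all 9 of 443 tRNA genes (2.03%) were overlapped by a member, while 36 were overlapped by any BPP peak (8.13%) and 33 by any CTR peak (7.45%). No member overlapped an rRNA gene, which allows a share of up to 0.142%, while 5 CTR-only peaks (0.302%) and 12 shared peaks (0.522%) did. tRNA and rRNA genes have near-identical copies, so which copy a peak belongs to is uncertain.

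Most members had neither a shared peak nor another member nearby. No shared peak and no other member lay within 10 kb of 1492 of them (70.6%), a shared peak lay within 10 kb of 410, and 212 had only other members that near. CTR-only peaks and BPP-only peaks in or at genes were not counted as neighbours of members. Counted by shared peaks and their own class, 1239 CTR-only intergenic peaks (74.8%) and 65.7% of BPP-only peaks inside genes had no neighbour. Another member lay within 10 kb of 284 members (13.4%, 95% Wilson interval 12.05 to 14.95), against 195 CTR-only peaks near one of their class (11.8%). The difference was 1.66 points (95% Newcombe interval −0.491 to 3.77), which includes 0. Its sign depended on where the peaks lay. Where a gene was 1 to 10 kb away, 74 of 626 members (11.8%) and 5 of 304 CTR-only peaks (1.64%) had a neighbour of their class, a difference of 10.2 points (7.03 to 13.1). Over 500 kb from any gene it was 22 of 165 members (13.3%) and 102 of 373 CTR-only peaks (27.3%), a difference of −14.0 points (−20.5 to −6.62). Both differences exclude 0 and have opposite signs. With the BPP list cut to the length of the CTR list the overall difference was −2.60 points, and at a fold of 5 or more it was −5.82 points. Shared intergenic peaks had a neighbour of their class in 36.0%.

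Joined at gaps of up to 10 kb, the members gave 1830 single peaks, 117 pairs and 15 clusters of 3 or more, against 1461, 83 and 9 for CTR-only peaks. A pair of clusters with 5 members was the largest. One lay in SLC38A4-AS1 at chr12:46507364-46524940, 135 to 151 kb from SLC38A2, the gene of an amino acid transporter, with folds, in order of position, of 5.22, 3.63, 3.78, 3.21 and 3.23. The other lay at chr2:231671578-231687704, 20.8 to 36.6 kb from PTMA, which encodes prothymosin alpha, with folds of 2.41 to 3.12. A cluster of 4 lay at chr6:71238194-71259920, 28.9 to 50.2 kb from OGFRL1, with folds of 3.52 to 6.88 and the nearest CTR peak 27.9 kb away. Clusters of 3 lay near SCARB1, the receptor for high-density lipoprotein, with folds of 2.59 to 4.03, and near ASPH, an aspartate hydroxylase, with folds of 2.85 to 4.23. None of these 5 clusters held a CTR or IgG peak within its span, and the rule itself bars CTR peaks within 1 kb of a member. Other clusters of 3 were as large. Those at chr8:61733448-61748668, also near ASPH, at chr8:127795530-127810822 in PVT1 and at chr20:64041030-64053276 held 1 CTR peak each.

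By nearest gene, the members pointed to 1463 protein-coding genes, 7.32% of 19974. CTR-only peaks pointed to 1078 (5.40%), and 343 genes were nearest to both kinds, which is 23.4% of the first set and 31.8% of the second. Of the 1463 genes 1153 had 1 member, 183 had 2 and 127 had 3 or more. The nearest gene need not be the one that an enhancer controls, and genes in wide gaps collect more peaks. LINC02798 and ZNF33B led with 17 members each, against 31 and 45 CTR-only peaks. All 17 of LINC02798 and 14 of ZNF33B lay in a gene-free stretch. EMB had 10 members, all in such a stretch, against 29 CTR-only peaks, and OR11H1, an olfactory receptor gene, had 10 against 18.

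The other genes with most members included regulators of growth signalling and a transporter. SPRY1 and SPRY2 encode feedback inhibitors of receptor tyrosine kinase signalling. SPRY1 had 12 members, 9 CTR-only and 15 shared peaks, with folds of 2.71 to 5.57. SPRY2 had 10 members, 2 CTR-only and 3 shared peaks, with folds of 3.21 to 5.64, and its own ends had a peak in BPP only. MYC, the oncogenic transcription factor, had 10 members, 3 CTR-only and 9 shared peaks within 17.4 to 148 kb for the members. Their folds were low, 2.28 to 4.72 with a median of 2.89, and 9 of the 10 lay in PVT1. AKR1E2, an aldo-keto reductase, had 9 members, 1 CTR-only and 11 shared peaks, with folds of 2.72 to 7.72. SLC38A2 had 9 members, 2 CTR-only and 14 shared peaks, with folds of 2.91 to 5.22.

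Members differed little from CTR-only peaks in nearest genes marked in both lists, and more in those marked in BPP alone or in neither. A gene-end peak of that gene was in both lists for 627 members (29.7%) and 494 CTR-only peaks (29.8%), a difference of −0.172 points (95% Newcombe interval −3.12 to 2.76), and 23.6% of all genes were marked in both. The sign of this difference changed with the settings, from −2.77 to 3.36 points, with 0 inside each interval. At a distance of 10 to 50 kb the shares were 31.4% of members and 24.3% of CTR-only peaks, a difference of 7.09 points (1.96 to 12.1). A nearest gene marked in BPP but not in CTR was found for 198 members (9.37%) and 87 CTR-only peaks (5.25%), a difference of 4.11 points (2.45 to 5.75). Among all protein-coding genes 7.03% were marked that way. The marks and the classes come from the same 2 lists, so differences in such marks are a description and no separate evidence. A nearest gene marked in CTR but not in BPP was found for 134 members (6.34%) and 96 CTR-only peaks (5.80%), a difference of 0.542 points (−1.02 to 2.06), beside 7.57% of all genes. A nearest gene marked in neither list was found for 1155 members (54.6%) and 979 CTR-only peaks (59.1%), a difference of −4.48 points (−7.65 to −1.30). Against shared intergenic peaks the picture was another. Of these 33.9% had a nearest gene marked in both lists, and members minus shared came to −4.25 points (−6.99 to −1.50). It was 1.37 points (−0.295 to 3.04) for BPP alone, 1.34 (−0.0258 to 2.73) for CTR alone and 1.55 (−1.39 to 4.49) for neither. Each of these last intervals includes 0.

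Among 11 lists of protein-coding genes, 9 held genes nearest to a member. In the list of AP-1 and stress transcription factors 10 of 44 genes (22.7%) were nearest to a member and 9 (20.5%) to a CTR-only peak. In the list of stem cell and oncogenic transcription factors it was 10 of 50 (20%) for each. The share over all genes was 7.32% for members and 5.40% for CTR-only peaks, and the genes of both lists stand in wider gaps. The median gap around a gene was 77.7 kb in the first list, 414 kb in the second and 39.0 kb over all genes. KLF4, a reprogramming factor, was nearest to 2 members and no CTR-only peak, the stronger by −log10 q with a fold of 5.76 at chr9:107749749-107750407, 260 kb from the gene and 466 kb from a CTR peak. KLF10, a factor induced by TGF-beta, had 1 with a fold of 4.49, and NFE2L2, the regulator of the oxidative stress response, 1 with a fold of 6.18, and each was also nearest to 1 CTR-only peak. The member of FOS, an AP-1 subunit, had a fold of 3.48 and lay 1.504 kb from a CTR peak. ID4 and ID1, inhibitors of helix-loop-helix factors, had 1 member each, with folds of 4.87 and 3.45, beside 4 CTR-only peaks of ID4 and none of ID1. LHX1, a homeobox gene, had 1 with a fold of 4.52.

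In the other lists too, the shares stand beside 7.32% over all genes for members and 5.40% for CTR-only peaks. The median gap around a gene was 136 kb for the WNT, NOTCH and TGF-beta list, 157 kb for growth factor receptors and MAPK, 122 kb for transition, matrix and adhesion, and 71.8 kb for mTOR and S6 kinase. It was 70.3 kb for ovarian and epithelial genes, 44.6 kb for apoptosis and p53 targets, and 18.7 kb for deacetylases and co-repressors. Among signalling genes, the WNT, NOTCH and TGF-beta pathways had 9 of 66 genes (13.6%) nearest to a member and 4 (6.06%) nearest to a CTR-only peak. The ligand gene WNT11 had 2 members, the one of higher −log10 q with a fold of 3.92 and 210 kb from a CTR peak. The receptor gene NOTCH1 had 1, with a fold of 3.12, and 1 CTR-only peak. SMAD3, which carries the TGF-beta signal to the nucleus, had 3 members, and SMAD6, an inhibitory Smad, had 2, with top folds by −log10 q of 6.32 and 5.65. Neither had a CTR-only or shared intergenic peak. Among 56 genes for growth factor receptors and the MAPK pathway, 8 (14.3%) were nearest to a member and 6 (10.7%) to a CTR-only peak, and SPRY1 and SPRY2 account for 22 of the 33 members of the list. The ephrin receptor genes EPHA2 and EPHA3 had 2 members each, and EPHA2 had no CTR-only peak where EPHA3 had 2. Of 46 mTOR and S6 kinase genes 3 (6.52%) were nearest to a member and 2 (4.35%) to a CTR-only peak. They were the kinase gene AKT1 with a fold of 3.02, DDIT4, an inhibitor of mTOR complex 1, with 3.83, and PIK3CB, a catalytic subunit of PI3-kinase, with 4.17.

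Of 51 apoptosis and p53 target genes 7 (13.7%) were nearest to a member and 3 (5.88%) to a CTR-only peak. TNFRSF10D, a decoy receptor for TRAIL, had 1 member with a fold of 5.27 at 12.5 kb, and BAK1, which permeabilises mitochondria, 1 with a fold of 4.71 at 10.2 kb. PLK2 and PHLDA3, targets of p53, had 2 members each and no CTR-only intergenic peak, while the ends of both genes had a peak in CTR only. Of 59 genes of epithelial-mesenchymal transition, matrix and adhesion 7 (11.9%) were nearest to a member and 6 (10.2%) to a CTR-only peak. They included THBS2, a thrombospondin, with 3 members, and the collagen genes COL3A1 and COL5A1 with 1 each. Of 43 deacetylase and co-repressor genes 5 (11.6%) were nearest to a member and 4 (9.30%) to a CTR-only peak. The co-repressor gene RCOR1 had 1 member, with a fold of 4.14, and the deacetylase gene HDAC11 had 2. Of 35 ovarian and epithelial genes 3 (8.57%) were nearest to a member, namely EPCAM, CRABP2 and KRT19, with folds of 5.51, 2.63 and 3.97, and 1 (2.86%) to a CTR-only peak.

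In 2 lists no gene was the nearest gene of a member. None of 50 cell-cycle and replication genes was nearest to a member, which allows a share of up to 6%, while 4 (8%) were nearest to a CTR-only peak. None of 26 acetyltransferase and bromodomain reader genes was, which allows a share of up to 11.5%, while 3 (11.5%) were nearest to a CTR-only peak. The first limit lies below the 7.32% found over all genes and the second above it.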

How the data were processed

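CUT&Tag peaks of 3 A2780 libraries (BPP, CTR, IgG; 1 each, grouped by title) were analysed. Per the labels' protocols, thawed frozen cells were processed with a commercial CUT&Tag kit. The submitters' processing notes name the build GRCh38.p13 (hg38) and the tools fastp, deepTools 3.3.0 and Bowtie2 2.4.1. Which program called peaks, how, and with what depth and control is not given in the sources used here.

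Each library has 1 peak list that the authors deposited, with a score, a fold (ratio), and −log10 p and −log10 q values per peak. No −log10 p lay below 5. These values were used only to describe, rank or filter peaks within a list. Peaks off chromosomes 1 to 22 and X (28 BPP, 37 CTR, 14 IgG) were left out. Absence from a list can mean a value slightly below the authors' threshold.

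Genes came from the RefSeq table of GRCh38.p14, which has no strand, so both gene ends got windows. lncRNA starts and strands came from RefSeq promoter windows. Overlap means at least 1 bp, and distances run between edges. Shares carry 95% Wilson and differences 95% Newcombe intervals. These treat peaks as independent, cover counting error only and leave out variation between cultures. A share of 0 is given with the limit of 3 counts.

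The members and gene lists were chosen with earlier results of these data known. Named peaks were the 12 highest by −log10 q without IgG within 1 kb, the 5 highest by fold, the 5 widest, the 5 largest clusters, the 5 nearest to either side of the 1 kb bound, the 5 highest by −log10 q with IgG, and 4 per class of non-coding gene. Named genes were the 10 nearest to most members and up to 4 per list; 5 Mb regions, lncRNAs with most members and further genes were named after their values were seen. Some that the rule takes are not reported. The tools were pandas 2.3.3, scipy 1.17.1, numpy 2.4.6 and matplotlib 3.10.9 under Python 3.11.15; overlaps were checked against bedtools 2.31.1. Alternatives varied the counterpart distance, gene-end window, list filters, list length and use of IgG, and, added after seeing the data, left out peaks over 500 kb from genes.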

Additional observations from a re-analysis of the deposited data

How the results depend on the processing

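No paired analysis was possible because each group had 1 library, and no library could be left out. The IgG difference stayed below 0 in each of its 9 alternatives, from −2.02 to −1.42 points. The excess of members in lncRNA genes stayed above 0, from 3.12 to 7.17 points, in all 10, and its interval included 0 at a fold of 5 or more (3.75). The number of members was 808 at a fold of 5 or more and 1517 to 2677 otherwise. Their share of intergenic BPP peaks was 45.4% at −log10 q of 5 or more, 49.7% without peaks near IgG, 60.6% with counterparts by 50% reciprocal overlap, 51.2% by overlap of 1 bp, 42.4% within 5 kb, 41.6% at equal list lengths and 51.4% without peaks over 500 kb from genes. The clustering difference (1.66 points) excluded 0 without peaks near IgG (2.49), with reciprocal overlap (2.28), counterparts within 5 kb (2.50), gene windows of 500 bp (2.17) and without peaks over 500 kb from genes (6.27). It turned negative at equal list lengths (−2.60), at a fold of 5 or more (−5.82) and with gene windows of 5 kb (−0.203). The difference in marked nearest genes (−0.172 points) turned positive at equal list lengths (0.263), at a fold of 5 or more (0.504), with windows of 5 kb (3.36) and without peaks over 500 kb from genes (2.87), with 0 inside each interval. Filters leave smaller lists, and the cause of these changes was not tested. Of the 12 named peaks 9 to 12 remained members under the other settings and 6 without peaks over 500 kb from genes. The differences in distance to genes, gene-free stretches, lncRNA starts and tRNA genes were not rerun under these settings. Read depth is unknown, so how far it limits the lists could not be measured.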

Other observations

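Antigen receptor loci, outside the protein-coding spans of the table, also held members. In the immunoglobulin heavy chain locus IGH the peaks at chr14:105743378-105743681 and chr14:106844233-106844814 had folds of 5.27 and 5.79. In the kappa light chain locus IGK the peak at chr2:89811726-89812197 had a fold of 5.48, with a CTR peak 1.12 kb and an IgG peak 1.85 kb away. Transcribed pseudogenes lay under 117 members (5.53%) and 90 CTR-only peaks (5.43%), a difference of 0.0997 points (95% Newcombe interval −1.40 to 1.55). FAAHP1, a pseudogene of fatty acid amide hydrolase, was under a member with a fold of 6.50, and FER1L4 under one with a fold of 6.01. A snRNA gene of the table, SNAR-C4, was under 1 member with a fold of 4.46, while 35 shared intergenic peaks (1.52%) lay over a snRNA gene. The widest member, 1513 bp at chr10:89780245-89781757, lay 5.31 kb from KIF20B, a kinesin of cell division, with a fold of 5.29.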
